A study of Mus musculus with 4 samples.

Results

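The genes described are the C-type lectins, Siglecs and galectins of mouse bone marrow-derived dendritic cells, chosen by gene symbol (Clec, Siglec, Cd209, Lgals and Mrc names). The rule found 37 of the 15881 genes listed in either of the 2 deposited comparison tables. All 37 were listed for stimulated cells and 36 for unstimulated cells, where Cd209d was not listed. The cells came from 8-week-old C57BL/6 mice and were either GOLPH2 knockout (KO) or wild type (WT). GOLPH2 is a Golgi membrane protein encoded by Golm1. The 4 groups were KO and WT cells after 16 h of IFN-gamma priming followed by 4 h of LPS, here called stimulated, and KO and WT cells without stimulation. Each group had 1 library, so no difference has a replicate check. The labels do not state how the cells were grown, whether animals were pooled, or which part of Golm1 the knockout removes.

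Lectins are proteins that bind sugars. C-type lectin receptors on dendritic cells and macrophages bind glycans of microbes or of dying cells. Some of them signal through the Fc receptor gamma chain or an own cytoplasmic motif to the kinase Syk, and others carry inhibitory motifs that recruit phosphatases. Siglecs bind sialic acid, and most of them are inhibitory. Galectins are soluble proteins that bind beta-galactosides and work both inside and outside cells. The galactose-type lectin Clec10a, the mannose receptor Mrc1 and the sialoadhesin Siglec1 are widely used as markers of macrophage and dendritic cell subsets.

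The deposited tables give a log2 ratio and a p-value per gene, and together these 2 values returned whole reads per library for nearly every gene. The library totals behind the test were 36.8 M (KO) and 37.7 M (WT) reads in stimulated cells, and 39.6 M (KO) and 34.6 M (WT) reads in unstimulated cells, where M stands for 1000000. Levels are given in CPM, the reads of a gene per 1000000 reads of its library. Golm1 itself had 190 reads in the KO and 779 reads in the WT library of stimulated cells, which is 25.0% of the WT level in CPM. In unstimulated cells it had 226 (KO) and 842 (WT) reads, or 23.5% of the WT level. The part of the Golm1 transcript these reads come from is unknown. Cxcl10, a chemokine gene induced by interferon, was 30.6-fold higher in the stimulated than in the unstimulated library of KO cells and 33.2-fold higher in WT cells. The dendritic cell integrin gene Itgax had 452 (KO) and 371 (WT) CPM in stimulated cells.

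Ratios given here are log2 of KO over WT in CPM, and an error after ± is the counting standard error (SE), which covers the sampling of reads and not the difference between cultures. The word called is used of a gene whose p in the authors' deposited table stayed under 0.001 after Benjamini-Hochberg adjustment over all genes of that table. With 1 library on each side, the call says that the pair of libraries differed by more than read sampling and nothing of other cultures. In bulk RNA, fewer cells of a type and less RNA per cell cannot be told apart.

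Clec10a and the galectin gene Lgals1 were higher in KO than in WT in both states, and Clec4e, Clec4d and Lgals3 were lower in KO in both, although Lgals3 changes sign in unstimulated cells on the ratio scale as deposited. In stimulated cells 8 of the 37 lectin genes were called, 3 higher (Clec10a, Clec7a and Lgals1) and 5 lower (Clec4e, Clec4d, Lgals3, Lgals8 and Lgals3bp), which is 21.6% against 11.9% of all 15310 genes of that table. Over all those genes 5.36% were called higher and 6.54% lower. In unstimulated cells 11 of 36 were called, 5 higher (Clec10a, Mrc1, Siglecg, Lgals1 and Lgals9) and 6 lower (Clec4e, Clec4d, Clec4n, Clec4a1, Siglece and Lgals3). That share was 30.6%, against 8.96% of all 15394 genes, of which 4.7% were called higher and 4.27% lower. By the sign of the ratios as deposited, not centred, the same 11 calls in unstimulated cells split into 7 higher and 4 lower. Lgals3 (0.10) and Clec4n (0.12) change sign. The deposited p, however, was centred on the log2 ratio of the library totals (0.191). Both ratios lie below that value, so both calls stand for a lower level in KO. No lectin gene was called in opposite directions in the 2 states, although the deposited ratios of Lgals3 had opposite signs in them. Over the 14823 genes listed in both tables, the share called higher in each state was 2.96% and the share called lower 2.23%.

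Most of these differences were small. Only Clec10a was also past 1.5-fold, 1 gene in each state, where 1.02% (stimulated) and 0.708% (unstimulated) of all genes were called at that size. By direction, that background was 0.425% higher and 0.594% lower in stimulated cells and 0.409% higher and 0.299% lower in unstimulated cells. The median ratio over the lectin genes was −0.05 in each state. That of all genes was 0.01 in stimulated and 0.00 in unstimulated cells. With ratios as deposited, the unstimulated medians were 0.14 over the lectin genes and 0.19 over all genes. The number of calls moved with read depth. Of the 11 lectin genes with a geometric mean of 1000 reads or more, 7 were called in stimulated and 6 in unstimulated cells. Among all genes past that limit, 26.3% and 18.8% were called. The class has no upper limit, and some lectin genes lie far above 1000 reads, such as Lgals3 with 80647 to 97639. These shares are therefore not matched for depth. At the low end, 10 lectin genes had under 50 reads in every library and none of these was called; their ratios ran from −0.81 to 1.62 in stimulated cells.

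**Figure D1:**
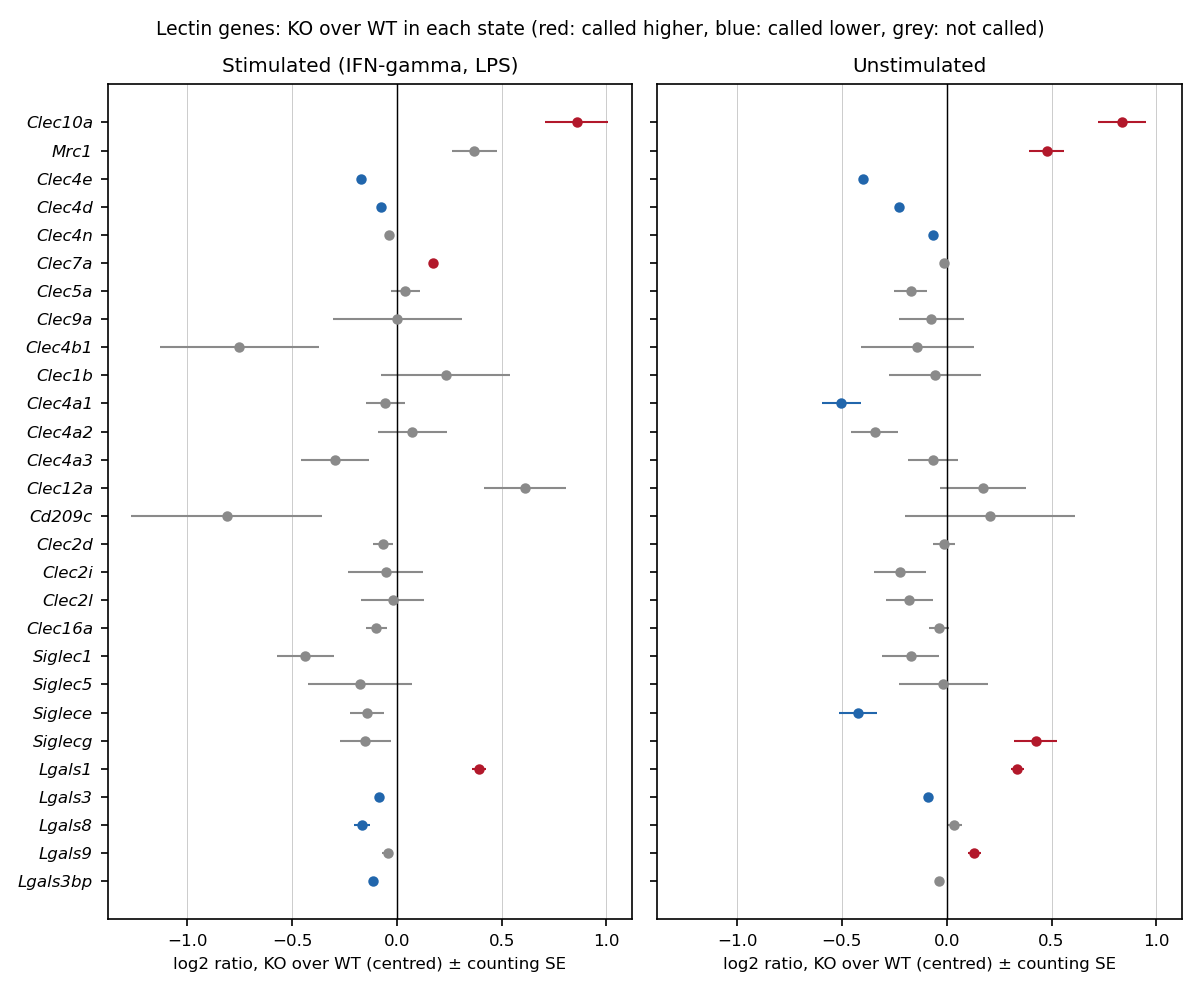
Log2 ratios of KO over WT with the counting SE for the 28 lectin genes with a mean of 20 reads or more over the 4 libraries, in stimulated cells (left) and unstimulated cells (right); red points were called higher, blue lower and grey were not called. Clec10a lies farthest to the right in both states, at 0.86 and 0.84, and Clec4e, Clec4d and Lgals3 lie left of 0 in both (with ratios as deposited, Lgals3 in unstimulated cells would lie at 0.10).

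**Figure D2:**
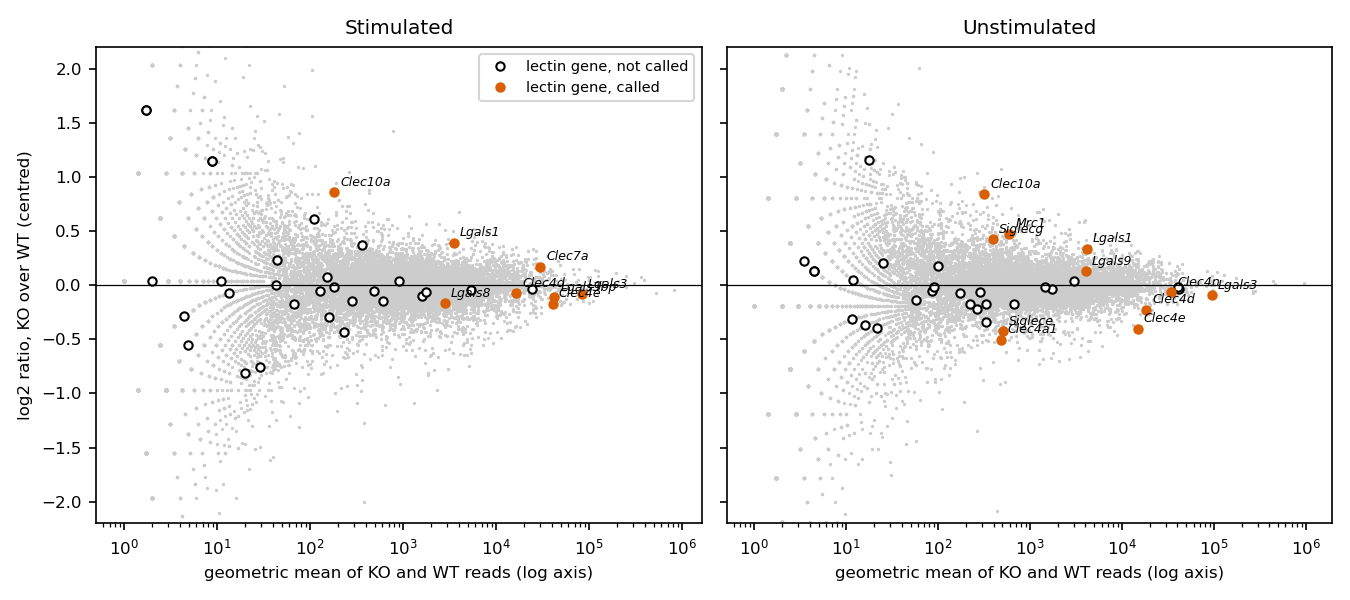
Log2 ratio of KO over WT against the geometric mean of reads in the KO and WT libraries (log axis) for all genes (grey) and the lectin genes (open, not called; filled, called), in stimulated (left) and unstimulated (right) cells; the vertical axis is limited, so some grey points lie outside it. Some called lectin genes with many reads, such as Lgals3 at −0.08 and −0.09 (0.10 as deposited in unstimulated cells), sit close to 0, while those with few reads were called only far from it. Other genes with many reads lie farther out, such as Clec4e at −0.40 in unstimulated cells and Lgals1 at 0.39 and 0.34.

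Clec10a, Mrc1 and Mrc2 are the galactose and mannose receptors of the set. Clec10a (MGL1, which binds terminal galactose and N-acetylgalactosamine; chromosome 11, 70156197 to 70170834, GRCm38, protein-coding) had 244 reads in KO and 138 in WT in stimulated cells, and 453 in KO and 222 in WT in unstimulated cells. In CPM that was 6.63 (KO) against 3.66 (WT) in stimulated and 11.5 (KO) against 6.41 (WT) in unstimulated cells. The KO library was thus the higher one within each state. The log2 ratios were 0.86 ± 0.15 and 0.84 ± 0.11, that is 181% and 179% of the WT level in stimulated and unstimulated cells, both called. Mrc1 (the mannose receptor CD206, an endocytic receptor for mannosylated ligands; chromosome 2, 14229392 to 14332057) had 403 (KO) and 320 (WT) reads in stimulated cells and 742 (KO) and 467 (WT) in unstimulated cells. It was called higher in unstimulated cells (0.48 ± 0.08) and was not called in stimulated cells (0.37 ± 0.11). In CPM it was at 11.0 (KO) and 8.49 (WT) in stimulated and 18.8 (KO) and 13.5 (WT) in unstimulated cells. The counted Mrc1 reads could include those of Mir511, which lies within the gene on the same strand. Mrc2, a collagen-binding receptor of the same family, had 13 (KO) and 6 (WT) reads in stimulated and 28 (KO) and 11 (WT) in unstimulated cells and was not called. Mgl2, the close paralog of Clec10a and a galactose-type lectin outside the symbol rule, had ratios of 0.25 ± 0.03 in stimulated and 0.25 ± 0.03 in unstimulated cells and was called higher in both. Reads that Clec10a and Mgl2 share could be split between them in the counting.

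Several other genes of macrophages also differed between the KO and WT libraries. Of 11 listed macrophage markers, 6 were called higher and 2 lower in stimulated cells, and 7 higher and 2 lower in unstimulated cells, with list medians of 0.18 and 0.29. Over all genes, 5.36% were called higher and 6.54% lower in stimulated cells, and 4.7% and 4.27% in unstimulated cells. At a geometric mean of 1000 reads or more, 26.3% and 18.8% were called in either direction. The same shares of all genes stand beside the lists that follow. The complement genes C1qc (0.65 ± 0.15 and 0.74 ± 0.14) and C1qb and the Fc receptor gene Fcgr1 (0.27 ± 0.05 and 0.66 ± 0.05) were called higher in KO in stimulated and unstimulated cells, while Cd14 was called lower in both. C1qb had 259 (KO) and 138 (WT) reads in stimulated and 290 (KO) and 127 (WT) in unstimulated cells. The summed level of the 9 macrophage markers with recovered reads was 1332 (KO) and 1287 (WT) CPM in stimulated cells and 1695 (KO) and 1681 (WT) in unstimulated cells, and none of these was at 0. This sum leaves out Cd14 (ratios −0.27 and −0.51) and Lyz2 (0.16 and 0.15), whose p was at the upper limit. Of 13 listed genes of alternatively activated macrophages, Arg1 was called higher in both states, at 0.61 and 0.56, with its p at the upper limit so that no counting SE is given. Ccl24 was called higher (0.33 ± 0.04 and 0.25 ± 0.04) and Marco lower (−0.36 ± 0.05 and −0.45 ± 0.05) in both. In all, 4 were called higher and 2 lower in stimulated cells and 6 higher and 3 lower in unstimulated cells, with medians of 0.25 and 0.20. The conventional dendritic cell list had 5 of 10 genes called higher in each state and 0 lower (medians 0.11 and 0.19), among them Batf3 (0.57 ± 0.04 and 0.51 ± 0.04) and Irf8 (0.24 ± 0.01 and 0.32 ± 0.02). The part of cell composition in the ratios of Clec10a and Mrc1 was not tested.

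Among the receptors that sense microbes and damaged cells, those called lower in KO were neighbours in the genome. Of these, Clec4n had a ratio above 0 as deposited in unstimulated cells. Clec4e (Mincle, a receptor for mycobacterial cord factor), Clec4d (MCL, its partner) and Clec4n (dectin-2, a receptor for fungal mannans) lie side by side on chromosome 6. Clec4e had 37840 (KO) and 43679 (WT) reads in stimulated cells and 13753 (KO) and 15916 (WT) in unstimulated cells. In CPM it was at 1029 (KO) against 1158 (WT) in stimulated and 348 (KO) against 459 (WT) in unstimulated cells, so the KO library was the lower one in both states. The log2 ratios were −0.17 ± 0.01 and −0.40 ± 0.02, or 88.8% and 75.7% of the WT level. The unstimulated reads of Clec4e come from a deposited p at its upper limit and were taken as the lowest whole-read pair that gives the ratio and keeps the table's order of p-values. Clec4d had 15866 (KO) and 17124 (WT) reads in stimulated cells and 17908 (KO) and 18343 (WT) in unstimulated cells. Its ratios were −0.07 ± 0.02 and −0.23 ± 0.02, both called. Clec4n had 23971 (KO) and 25217 (WT) reads in stimulated and 35518 (KO) and 32575 (WT) in unstimulated cells; the ratio was −0.04 ± 0.01, not called, and −0.07 ± 0.01, called. The unstimulated ratio of Clec4n as deposited was 0.12. That is above 0 but below the log2 ratio of the library totals (0.191), on which the deposited p was centred. 

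Clec4e and Clec4d sit next to each other and were called lower together, so the 250 bases before the start of each were set side by side, read from RefSeq's GRCm38.p6 annotation at chr6:123289872-123290121 on the minus strand and chr6:123261857-123262106 on the plus strand. Capitals mark a match to a C/EBP site (TTGCNNAA, searched on both strands).
Clec4e: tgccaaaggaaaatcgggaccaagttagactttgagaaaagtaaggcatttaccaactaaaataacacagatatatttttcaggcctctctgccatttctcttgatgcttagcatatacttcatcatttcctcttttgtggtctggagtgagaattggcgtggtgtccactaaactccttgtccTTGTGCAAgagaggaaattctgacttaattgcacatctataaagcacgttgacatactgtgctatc
Clec4d: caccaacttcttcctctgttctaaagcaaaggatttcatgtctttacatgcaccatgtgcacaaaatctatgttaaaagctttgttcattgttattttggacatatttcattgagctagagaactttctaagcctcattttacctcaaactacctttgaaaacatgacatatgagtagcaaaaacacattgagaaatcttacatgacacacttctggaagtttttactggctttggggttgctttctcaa
The Clec4e sequence held 1 such match, 66 bases before the start, and the Clec4d sequence held none. The matched share was 9.55% of 27025 promoters of that length and 4 of the 29 lectin genes found in the RefSeq table.

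In the stretch of chromosome 6 from 122921848 to 123289870, 9 lectin genes lie together: Clec4a1, Clec4a3, Clec4a4, Clec4b1, Clec4a2, Clec4b2, Clec4n, Clec4d and Clec4e. Of these, 2 were called lower and 0 higher in stimulated cells, where 6.54% of all genes were called lower and 5.36% higher. In unstimulated cells 4 were called lower and 0 higher, beside 4.27% of all genes lower and 4.7% higher. Of these 4, Clec4n had a ratio above 0 as deposited. A further 9 lie from 128887588 to 129472779, namely Clec2i, Clec2g, Clec2f, Clec2d, Clec12a, Clec1b, Clec9a, Clec1a and Clec7a. There, 1 was called higher in stimulated cells (Clec7a), 0 were called lower, and 0 were called in unstimulated cells. The genes of the Clec4a, Clec4b and Clec2 groups are close paralogs, and reads they share could be split in the counting.

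Clec7a (dectin-1, the receptor for fungal beta-glucan) had 31197 (KO) and 28394 (WT) reads in stimulated cells and 43741 (KO) and 38698 (WT) in unstimulated cells. In CPM that was 848 (KO) and 753 (WT) in stimulated and 1106 (KO) and 1117 (WT) in unstimulated cells. The KO library was thus the higher one after stimulation (0.17 ± 0.01, called) and near WT without it (−0.01 ± 0.01, not called). The other activating receptors were not called in either state. Among them, Clec5a (a DAP12-coupled receptor) had ratios of 0.04 ± 0.07 and −0.17 ± 0.08 in stimulated and unstimulated cells. Clec9a (DNGR-1, the receptor of cross-presenting dendritic cells for dead cells) had 43 (KO) and 44 (WT) reads in stimulated and 179 (KO) and 165 (WT) in unstimulated cells. Some Clec9a reads may belong to Clec1b, which overlaps it on the same strand. Of the 9 activating receptors, 1 was called higher and 2 lower in stimulated cells, beside 5.36% and 6.54% of all genes. In unstimulated cells 0 were called higher and 3 lower, beside 4.7% and 4.27% of all genes. The lower ones include Clec4n, whose ratio was above 0 as deposited.

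The DCIR family (Clec4a genes) and Clec12a include receptors with inhibitory motifs. Of these 5 genes, 0 were called in stimulated cells, beside 11.9% of all genes. In unstimulated cells 1, Clec4a1, was called lower, beside 4.27% of all genes called lower. Its 469 (KO) and 500 (WT) reads in stimulated cells gave a ratio of −0.06 ± 0.09, not called. Its 430 (KO) and 534 (WT) reads in unstimulated cells gave −0.50 ± 0.09, called, or 70.5% of the WT level, the lowest share among the called lectin genes of that state. The others, Clec4a2, Clec4a3, Clec4a4 and Clec12a, were not called in either state. Clec12a, a receptor for uric acid crystals, had 134 (KO) and 90 (WT) reads in stimulated cells (0.61 ± 0.20) and 112 (KO) and 87 (WT) in unstimulated cells (0.17 ± 0.21). No gene of the Cd209 family (Cd209c and Cd209d, relatives of DC-SIGN) was called in either state. The same held for the Clec2 family (Clec2d, Clec2f, Clec2g, Clec2i and Clec2l) and the remaining Clec series (Clec1a, Clec11a and Clec16a). Over all genes, 11.9% were called in stimulated and 8.96% in unstimulated cells. Of these 10 lectin genes, Cd209c, Cd209d, Clec2f, Clec2g, Clec1a and Clec11a had under 50 reads in every library, where only a large difference could be called. Clec2d and Clec16a had over 1000 reads in every library. Their ratios were −0.06 ± 0.05 and −0.10 ± 0.05 in stimulated and −0.01 ± 0.05 and −0.04 ± 0.05 in unstimulated cells.

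Siglec1 (sialoadhesin, a sialic acid receptor of macrophages that also captures viruses) had 196 (KO) and 272 (WT) reads in stimulated cells and 223 (KO) and 220 (WT) in unstimulated cells. In CPM it was at 5.33 (KO) and 7.21 (WT) in stimulated and 5.64 (KO) and 6.35 (WT) in unstimulated cells. The ratios were −0.44 ± 0.13 and −0.17 ± 0.14, and neither was called. Siglece (an inhibitory Siglec of myeloid cells) had 568 (KO) and 643 (WT) reads in stimulated and 463 (KO) and 544 (WT) reads in unstimulated cells. It was called lower in unstimulated cells (−0.42 ± 0.09) and not in stimulated cells (−0.14 ± 0.08). Siglecg (an inhibitory receptor of B cells that dendritic cells also express) had 268 (KO) and 305 (WT) reads in stimulated and 484 (KO) and 316 (WT) in unstimulated cells. Its KO library was the higher one without stimulation (0.42 ± 0.10, called, 134% of the WT level) and not after it (−0.15 ± 0.12, not called). Beside it, the summed level of 4 B cell markers was 3.83 (KO) and 1.86 (WT) CPM in stimulated and 5.18 (KO) and 2.94 (WT) CPM in unstimulated cells (median ratios 1.12 and 0.93). None of the 4 markers was at 0, and 0 were called, where 11.9% (stimulated) and 8.96% (unstimulated) of all genes were. Their part in the Siglecg ratio was not tested. The row named Siglec5 matched RefSeq's Siglec-F gene, a marker of eosinophils and alveolar macrophages, and had 63 (KO) and 73 (WT) reads in stimulated and 96 (KO) and 85 (WT) in unstimulated cells; it was not called.

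**Figure D3:**
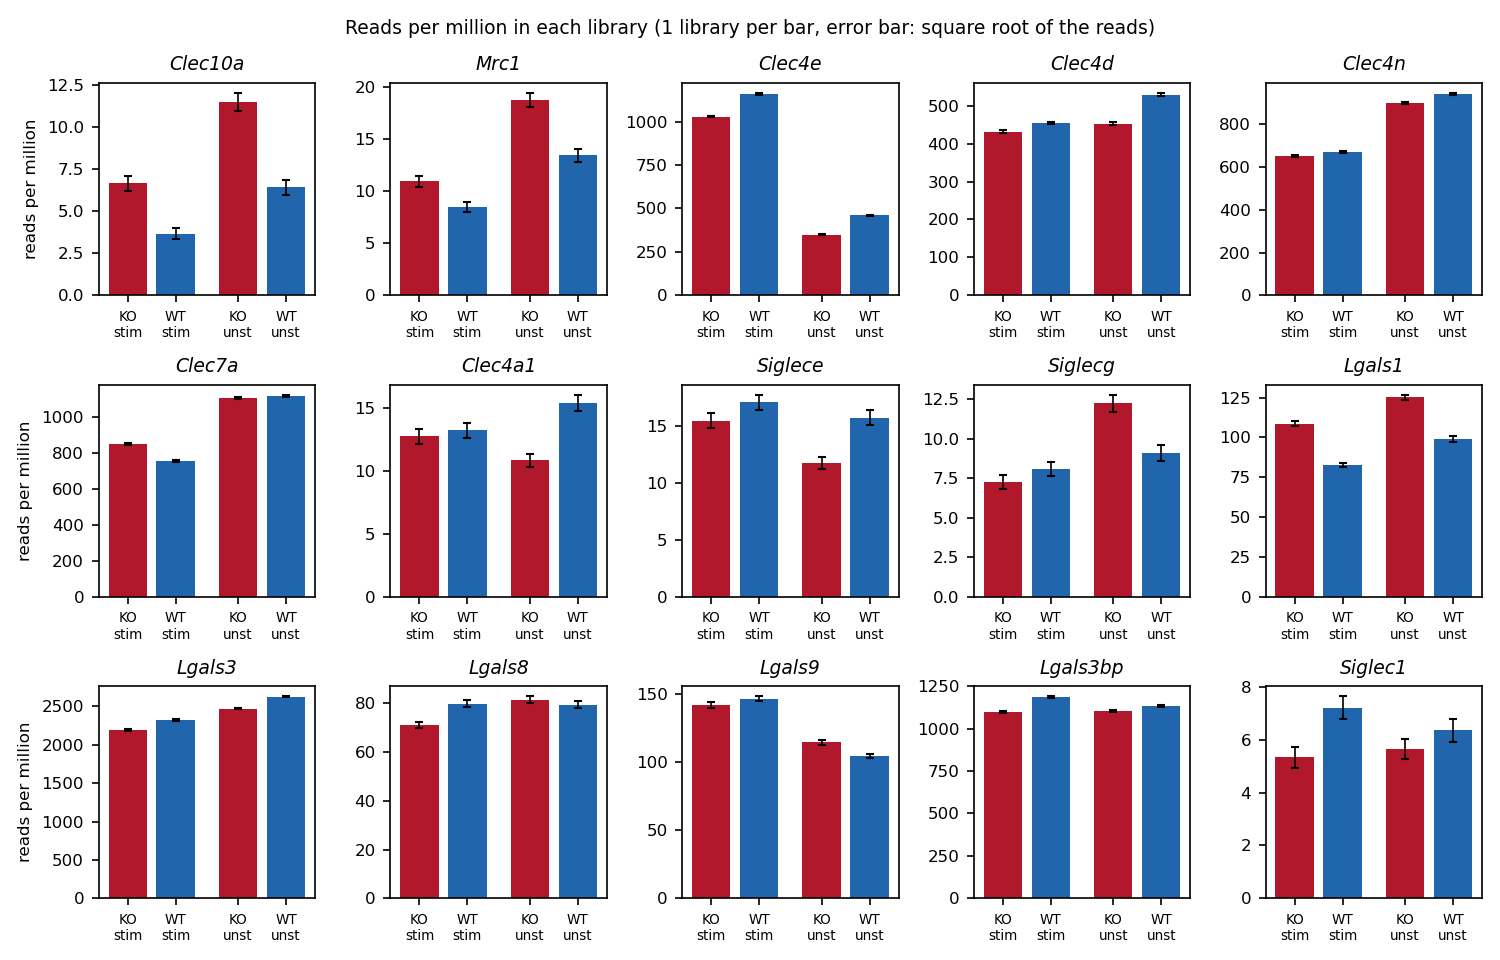
Reads per 1000000 library reads (CPM) in each of the 4 libraries for 15 lectin genes, with 1 library per bar (red, KO; blue, WT; the stimulated pair left of the unstimulated pair) and the square root of the reads as the error bar. Clec10a, Mrc1 and Lgals1 are higher in the KO bar of each pair, Clec4e and Clec4d are lower in it, and Siglecg and Lgals9 are higher in the KO bar only in the unstimulated pair.

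The galectin genes were called in both directions. Of the 5 galectin genes and Lgals3bp, 1 was called higher and 3 lower in stimulated cells, beside 5.36% and 6.54% of all genes. In unstimulated cells 2 were called higher and 1 lower, beside 4.7% and 4.27%. The lower one, Lgals3, had a ratio above 0 as deposited. All but Lgals4 had over 1000 reads in every library. Of all genes with a geometric mean of 1000 reads or more, 26.3% (stimulated) and 18.8% (unstimulated) were called. Lgals1 (galectin-1, a secreted lectin that restrains T cells) had 3995 (KO) and 3119 (WT) reads in stimulated and 4947 (KO) and 3431 (WT) in unstimulated cells. Its KO library was the higher one in both states, with ratios of 0.39 ± 0.03 and 0.34 ± 0.03, or 131% and 126% of the WT level. Lgals3 (galectin-3, made by activated macrophages and dendritic cells) had 80647 (KO) and 87627 (WT) reads in stimulated and 97639 (KO) and 90973 (WT) in unstimulated cells. It was called lower at −0.08 ± 0.01 and −0.09 ± 0.01, which is 94.4% and 94.0% of the WT level. The unstimulated ratio of Lgals3 as deposited was 0.10, below the log2 ratio of the library totals (0.191). Lgals9 (galectin-9, a ligand of TIM-3 induced by interferon) had 5225 (KO) and 5525 (WT) reads in stimulated and 4527 (KO) and 3618 (WT) in unstimulated cells. It was called higher in unstimulated cells (0.13 ± 0.03) and not called in stimulated cells (−0.04 ± 0.03).

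Lgals8 (galectin-8, which binds damaged phagosomes and directs autophagy) had 2617 (KO) and 3015 (WT) reads in stimulated and 3226 (KO) and 2755 (WT) in unstimulated cells, with ratios of −0.17 ± 0.04, called, and 0.04 ± 0.04, not called. Lgals8 overlaps Heatr1 on the other strand, and whether the counting used strand is not stated in the labels. Lgals3bp, which encodes a secreted protein bound by galectin-3 and not a galectin, had 40357 (KO) and 44716 (WT) reads in stimulated and 43691 (KO) and 39210 (WT) in unstimulated cells. It was called lower in stimulated cells (−0.11 ± 0.01) and not called in unstimulated cells (−0.04 ± 0.01). Lgals4 had from 11 to 17 reads in the 4 libraries and was not called.

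Lgals3 and Lgals9 were called in opposite directions in unstimulated cells, although both ratios were above 0 as deposited. Because of the opposite calls, the 250 bases before the RefSeq start of each (GRCm38.p6) are shown. They come from chr14:47373610-47373859 on the plus strand and chr11:78984925-78985174 on the minus strand. Capitals mark matches to a STAT6-type site (TTC, 4 bases of any kind, GAA) in Lgals3 and to an ISRE core (GAAA, 2 bases of any kind, GAAA) in Lgals9, both searched on both strands.
Lgals3: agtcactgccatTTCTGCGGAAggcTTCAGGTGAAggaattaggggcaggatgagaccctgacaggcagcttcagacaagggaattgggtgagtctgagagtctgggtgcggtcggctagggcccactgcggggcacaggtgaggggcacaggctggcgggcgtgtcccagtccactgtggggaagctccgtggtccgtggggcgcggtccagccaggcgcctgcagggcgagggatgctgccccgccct
Lgals9: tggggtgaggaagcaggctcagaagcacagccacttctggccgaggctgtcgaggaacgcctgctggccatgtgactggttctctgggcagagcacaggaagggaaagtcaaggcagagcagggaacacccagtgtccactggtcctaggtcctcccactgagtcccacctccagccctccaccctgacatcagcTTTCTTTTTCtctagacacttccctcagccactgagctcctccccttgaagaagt
Lgals3 held 2 STAT6-type matches, 238 and 225 bases before the start, and Lgals9 held 1 ISRE match on the reverse strand, 55 bases before it. The share of all 27025 promoters with a match was 5.88% for the STAT6-type site and 3.05% for the ISRE core, and 5 and 3 of the 29 lectin promoters had one. The same search for a GAS site (TTCNNNGAA, 7.14% of all promoters), a kappa B site (GGGA, 1 base of any kind, TTTCC, 0.344%), a PU.1 site (GAGGAAGT, 2.42%) and an AP-1 site (TGANTCA, 6.85%) found 1, 1, 0 and 2 of the 29. The patterns were searched apart from each other, and a stretch could count for more than 1. The GENCODE model of Lgals3 starts at 47367751, upstream of the stretch shown.

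Levels of different genes were compared per 1000 bases of exon and 1000000 reads (RPKM), as means over the 4 libraries. Lgals3 was the highest at 1293, with a range of 1180 to 1413 over the libraries. Next came Clec4n (556), Lgals3bp (397), Clec7a (362), Clec4d (292), Clec4e (151), Lgals1 (115), Lgals9 (59.4), Clec2d (36.0) and Lgals8 (21.2). This order of means pools both states and changes between them for 2 pairs of neighbours. Clec4e was at 207 (KO) and 233 (WT) RPKM in stimulated cells, above Lgals1 at 120.3 (KO) and 91.6 (WT). In unstimulated cells Clec4e was at 70.0 (KO) and 92.5 (WT) RPKM, below Lgals1 at 138 (KO) and 109.7 (WT). Clec7a was at 322 (KO) and 285 (WT) RPKM in stimulated cells, below Lgals3bp at 385 (KO) and 416 (WT), and at 419 (KO) and 423 (WT) in unstimulated cells, above Lgals3bp at 388 (KO) and 398 (WT). With 1 library per group, the spread within a group is unknown, and neighbours close in level cannot be told apart from it. Clec2d encodes a ligand of an inhibitory NK cell receptor. Clec10a was at 2.43, Mrc1 at 2.03 and Siglec1 at 0.858 RPKM, and 11 genes had over 1000 reads in every library.

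In both genotypes, the stimulated library held at least 2-fold more Clec4e than the unstimulated one, and for Clec9a, the other gene of the set past 2-fold, it held less. A response is log2 of stimulated over unstimulated CPM within a genotype, given for the 28 lectin genes with a mean of 20 reads or more over the libraries. The tables do not compare the states, so no test stands behind a response, and it rests on 1 library per state. Clec4e was 2.96-fold higher in KO and 2.52-fold higher in WT cells (log2 1.56 ± 0.01 and 1.33 ± 0.01), where 2.07% of 12160 genes were 2-fold higher in both genotypes. The unstimulated reads of this gene are those taken from the p at its upper limit. Clec9a was at 25.8% of its unstimulated level in KO and 24.5% in WT (−1.95 ± 0.25 and −2.03 ± 0.24), where 1.23% of all genes were 2-fold lower in both.

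At 1.5-fold, 9 lectin genes were lower after stimulation in both genotypes, against 5.53% of all genes, and Clec4e alone was higher, against 4.42%. The 9 were Clec10a, Mrc1, Clec9a, Clec4b1, Clec1b, Clec4a2, Clec4a3, Clec2i and Clec2l. Clec10a was at 57.9% of its unstimulated level in KO and 57.1% in WT (−0.79 ± 0.11 and −0.81 ± 0.16), and Mrc1 at 58.4% and 63.0%. The median response of the 28 genes was −0.29 in KO and −0.22 in WT, beside −0.15 in KO and −0.15 in WT over all genes. Among well-measured genes, Clec7a was lower after stimulation (−0.38 in KO and −0.57 in WT), as was Clec4n (−0.46 and −0.49), while Lgals3 lay near the median gene (−0.17 and −0.18) and Lgals9 was higher (0.31 and 0.49). Relative to the median gene, 6 of the 9 stayed past 1.5-fold (Clec10a, Clec9a, Clec1b, Clec4a2, Clec2i and Clec2l), against 3.09% of all genes, and Clec4e stayed higher. On the CPM scale, 17 of the 28 were lower in both genotypes at any size, 5 higher in both, and 6 had opposite signs (Clec4a1, Clec12a, Cd209c, Siglec1, Lgals8 and Lgals3bp); relative to the median gene these counts were 15, 8 and 5.

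**Figure D4:**
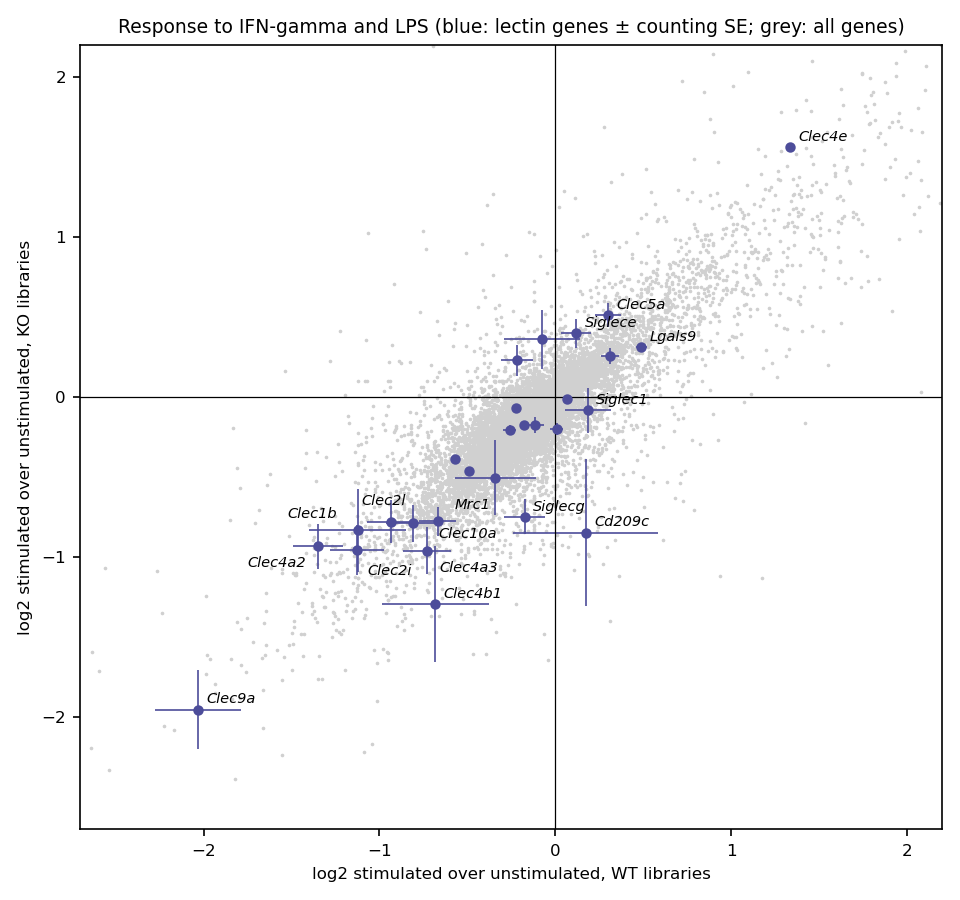
Log2 of stimulated over unstimulated CPM in KO (vertical axis) against WT (horizontal axis), for the 28 lectin genes with the counting SE (blue) and all genes with a mean of 20 reads or more (grey; some lie outside the axes). Clec4e lies at the upper right and Clec9a at the lower left, and Siglecg lies below the bulk at −0.75 in KO and −0.17 in WT.

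The difference in response between genotypes is the same quantity as the difference in the KO over WT ratio between states, since both use the same 4 libraries. By the size rule of 1.5-fold and over 2 counting errors, 0 of 36 lectin genes had ratios that differed between states, where 0.978% of all genes differed with the stimulated ratio higher and 1.67% with it lower. Siglecg lay just outside the fold limit, with a difference of −0.57 ± 0.16 between the stimulated and the unstimulated ratio. Clec4a1 differed by 0.45 ± 0.13 and Clec4e by 0.23 ± 0.02. With 1 library per group no test of the difference can be made.

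No gene that carries the signals of these receptors was called at 1.5-fold, where 1.02% (stimulated) and 0.708% (unstimulated) of all genes were. Beside the counts below, 11.9% of all genes were called in stimulated and 8.96% in unstimulated cells. At a geometric mean of 1000 reads or more, these shares were 26.3% and 18.8%. Of 15 signal carriers (medians 0.01 and −0.02 in stimulated and unstimulated cells), 2 were called higher (Fcer1g, the gamma chain that Mincle and dectin-2 use, 0.11 ± 0.02, and Tyrobp, the adaptor DAP12, 0.25 ± 0.04) and 2 lower (the phosphatase genes Ptpn6, −0.19 ± 0.04, and Ptpn11, −0.12 ± 0.03) in stimulated cells. In unstimulated cells Fcer1g (0.08 ± 0.02) and Malt1 (0.09 ± 0.02) were called higher and Bcl10 (−0.23 ± 0.05) lower. The kinase gene Syk was not called in either state, at −0.03 ± 0.01 in unstimulated cells. Of 24 other receptors with a lectin fold, 3 were called higher and 2 lower in stimulated cells and 2 higher and 3 lower in unstimulated cells, with medians of 0.03 and 0.06. Among these, Cd33 (a Siglec named outside the symbol rule) was lower in both states (−0.28 ± 0.04 and −0.48 ± 0.03), as was Ly75 (the endocytic receptor DEC-205, −0.23 ± 0.02 and −0.17 ± 0.02). Klrk1 was called higher in stimulated cells (0.58 ± 0.14) and Cd93 lower in unstimulated cells (−0.40 ± 0.07). Of 17 genes for the making, transfer and removal of sialic acid, the ligand of Siglecs, 2 were called higher and 1 lower in stimulated cells and 3 higher and 1 lower in unstimulated cells, with medians of 0.06 and 0.04. The sialyltransferase gene St3gal1 was lower in both states (−0.21 ± 0.01 and −0.18 ± 0.01) and St8sia4, which makes polysialic acid, was higher in both (0.16 ± 0.02 and 0.09 ± 0.02). St6gal1 was called higher in stimulated cells (0.19 ± 0.04), and St3gal4 (0.49 ± 0.08) and St6galnac4 (0.27 ± 0.04) in unstimulated cells.

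Markers of other cell types were read beside the lectin genes. Over all genes, 11.9% were called in stimulated and 8.96% in unstimulated cells, and these shares stand beside each list here. Of 12 stromal and endothelial markers, 5 were called higher and 2 lower in stimulated cells and 3 higher and 0 lower in unstimulated cells (medians 0.47 and 0.46). Col3a1, a collagen gene, had 226 (KO) and 3 (WT) reads in stimulated and 38 (KO) and 4 (WT) in unstimulated cells. The summed level of the 12 genes was 176 (KO) and 137 (WT) CPM in stimulated and 176 (KO) and 148 (WT) in unstimulated cells. Most of the stimulated sum came from Thy1, at 68.6 (KO) and 51.5 (WT) CPM, and Pecam1, at 47.0 (KO) and 45.0 (WT). Single genes differed more in these cells, such as Col1a1 at 9.98 (KO) and 0.875 (WT) CPM and, the other way, Pdgfrb at 4.08 (KO) and 6.81 (WT). In stimulated and unstimulated cells, 1 gene of the plasmacytoid dendritic cell list was called (Irf7, −0.09 ± 0.01 and 0.18 ± 0.01), with list medians of 0.05 and 0.19. The neutrophil list had 0 calls (medians −0.99 and −0.14). These medians rest on 4 and 6 genes. Only S100a8 among them had a geometric mean of 50 reads or more (−0.18 ± 0.13 and −0.59 ± 0.16). In the eosinophil, basophil and mast cell list 1 gene was called (Hdc, −0.14 ± 0.02 and −0.29 ± 0.03), with medians of −0.14 and −0.14. The NK and T cell list had 1 call in each state (Gzmb higher in stimulated and Gzma higher in unstimulated cells; medians 0.04 and 0.39). The megakaryocyte and platelet list had 1 in stimulated cells (Pf4, 0.35 ± 0.05) and 0 in unstimulated cells, with medians of 0.22 and −0.18. The part of these cells in the lectin ratios was not tested.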

How the data were processed

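RNA was sequenced from 4 dendritic cell libraries, 1 per group; the sample titles give the groups. The submitters' processing notes name the read check FastQC 0.10.1, the read counter HTSeq 0.6.0 and the mouse build mm10, and no aligner, annotation or test was stated there. The authors deposited, per the file headers, a log2 ratio of KO over WT reads and a p-value per gene in each state; the authors' second measure is −log10 of p, judged by its values, and stops at 150 (stimulated) or 100 (unstimulated). From these values, the p was that of a two-sided normal test centred on the log2 ratio of the library totals (−0.036 and 0.191), and the ratio was reduced by that zero point. Ratio and p together gave whole reads per library within 0.05 read for 15257 of 15260 (stimulated) and 15341 of 15343 (unstimulated) genes below the upper limit, an own derivation. For Clec4e and Golm1 in unstimulated cells, at that limit, the lowest pair of whole reads that fits the table's order of p was used. Totals, CPM, RPKM (exon lengths of GENCODE vM21) and responses come from these reads. A gene listed with 0 reads in 1 library had been entered as 0.5 by the authors.

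The members were found by symbol and the 13 gene lists, the roles and the tests were chosen with earlier results of these data known. Every lectin gene called in at least 1 state is named, with Clec10a, Siglec1, Mrc1, Lgals1, Lgals3 and Lgals9 whatever their values; of the other lists, at most 4 called genes in each state with the largest ratios are named. A few genes were added after their values were seen: Mrc2, Clec5a, Clec9a, Clec12a, Syk, and the lectin genes of the response. The procedure was also run on simulated reads. Their p was made with the same formula that the procedure inverts, so that run cannot show that the deposited p follows it. Promoters came from RefSeq (GRCm38.p6) and held 29 of the 37 genes. Scripts used Python 3.11.15, numpy 2.4.6, scipy 1.17.1, pandas 2.3.3 and matplotlib 3.10.9. Alternatives were the zero of the ratio scale, the threshold, a minimum fold, a filter on counting error, leaving out Lgals3bp, and the scaling of the response.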

Additional observations from a re-analysis of the deposited data

Results flagged for a closer look

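For 4 lectin genes that were called in at least 1 state, the centred KO over WT ratio had opposite signs in stimulated and unstimulated cells. The difference between states was not tested, since there was 1 library per group. The stimulated minus the unstimulated ratio was 0.19 ± 0.02 (counting SE) on the log2 scale for Clec7a, −0.57 ± 0.16 for Siglecg, −0.20 ± 0.05 for Lgals8 and −0.18 ± 0.04 for Lgals9. The signs depend on the zero of the scale: with ratios as deposited, 6 called genes had opposite signs (Clec4n, Siglecg, Lgals3, Lgals8, Lgals9 and Lgals3bp) and Clec7a had 1 sign, and the centred ratio of Clec7a in unstimulated cells was only −0.01 ± 0.01.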

How the results depend on the processing

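The calls rest on the deposited p, so centring the ratios on the median gene could not change the counts of 8 and 11 called lectin genes. Leaving out genes of few reads removed no called lectin gene. Without Lgals3bp, itself called in stimulated cells, the counts were 7 and 11. With at least 1.5-fold as well, 1 gene was called in stimulated cells (1 higher, 0 lower) and 1 in unstimulated cells (1 higher, 0 lower). At an adjusted p under 0.05, 12 genes were called in stimulated cells (5 higher, 7 lower) instead of 8 (3 higher, 5 lower). In unstimulated cells 13 were called (5 higher, 8 lower) instead of 11 (5 higher, 6 lower). With ratios as deposited, the median ratio in unstimulated cells was 0.14 over the lectin genes and 0.19 over all genes. Lgals3 was at 0.10 and Clec4n at 0.12, both turned in sign. On that scale 2 genes (Siglecg and Cd209c) instead of 0 differed between states. By construction, the uncentred scale keeps the ratio of the library totals. At 1.5-fold, 9 genes instead of 1 were lower after stimulation in both genotypes, or 6 relative to the median gene, a scaling chosen at that fold after seeing the data. An exact binomial test on the recovered reads, chosen after seeing the data, kept all 8 and 11 member calls. Over the genes with recovered reads it kept 1748 of 1772 and 1304 of 1331 calls. These reads were derived from the same deposited ratio and p, so the test is no independent check of the calls. Called genes at the upper limit of p without such reads were not tested. No paired analysis was possible because each group had 1 library. For the same reason no library could be left out, and every p holds counting error only. Depth limits the 10 lectin genes under 50 reads in every library.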
